A study of Mus musculus with 12 samples.

Results

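Mouse embryonic stem (ES) cells treated with rapamycin were compared with control ES cells across genes. The comparison used 2 rapamycin and 2 control libraries, and a gene was a member where it reached 1 TPM (transcript abundance per length, scaled to a fixed library total) in at least 2 of these 4 libraries. Of 53715 genes in the table, 15355 were members. Rapamycin is a macrolide that binds the immunophilin encoded by Fkbp1a, and the pair then blocks the kinase mTOR in its complex mTORC1. In growing cells mTORC1 drives protein synthesis, ribosome production, amino acid and sterol synthesis, partly through the transcription factors ATF4 and SREBP, and holds back autophagy and the lysosome factors TFEB and TFE3. Much of this control acts on phosphorylation and translation, which an mRNA table does not measure.

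The cells were the line E14, derived from the inner cell mass of the blastocyst. They were grown in LIF/2i medium on mouse embryonic fibroblast (MEF) feeders. The study's RNA methods do not state that the feeders were removed before RNA was taken. The control cells are labelled as control, and the study's methods do not state whether they received a vehicle. The same table held 2 libraries each of ES cells treated with rotenone and with CX-5461. Rotenone blocks respiratory complex I, and CX-5461 blocks transcription of ribosomal DNA. Libraries were made from poly(A)-selected RNA. The study describes the libraries of a group as biological replicates, while the labels name no separate cultures, so every p-value measures only the spread between these libraries. In bulk RNA, fewer cells of a type and less RNA per cell cannot be told apart. The read depth behind the TPM values is unknown, so no counting intervals are given.

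The ES identity of the libraries was clear in all 4. Pou5f1, which encodes the pluripotency factor OCT4, stood at 1631 and 1649 TPM in the controls and 1592 and 1657 TPM with rapamycin. Sox2 stood between 410 and 461 TPM and Nanog between 727 and 838 TPM in the 4 libraries. Fibroblast genes were present too. The collagen gene Col1a1 stood at 221 and 305 TPM in the controls and 603 and 435 TPM with rapamycin, so fibroblast transcripts were present in every library.

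The control libraries differed from each other more than control 2 differed from either rapamycin library. Over the members, Pearson's r between log2(TPM + 1) values was 0.973 for the 2 controls and 0.980 for the 2 rapamycin libraries. Across groups it was 0.958 and 0.976 for control 1 against the rapamycin libraries, and 0.979 and 0.982 for control 2. Control 2 was therefore closer to both rapamycin libraries than to control 1. Between the controls, 5.93% of members differed by more than 1 on the log2 scale. The share was 11.1% and 5.14% between control 1 and rapamycin 1 and 2, and 3.02% and 2.64% between control 2 and rapamycin 1 and 2.

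The replicates agreed only in part on the direction of each gene. With rapamycin 1 set against control 1 and rapamycin 2 against control 2, 49.1% of members differed in the same direction and r across genes was −0.03. With the controls exchanged, 71.5% had the same direction and r was 0.30. Genes are not independent replicates, and these values describe how far pairs of libraries that share no library agree.

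**Figure D1:**
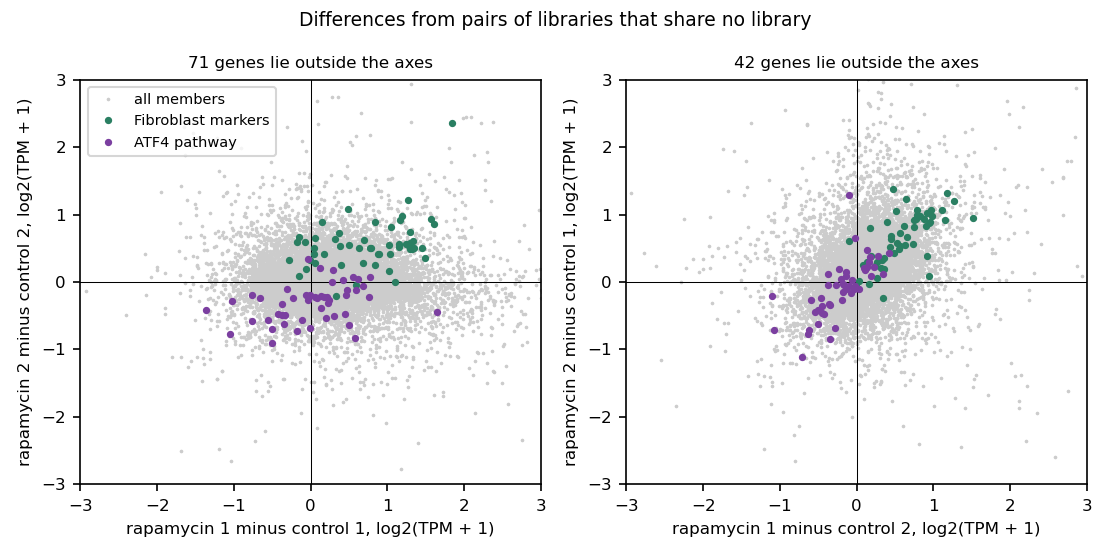
Each grey point is one member gene. The axes give the rapamycin minus control difference in log2(TPM + 1) from separate pairs of libraries, with like-numbered libraries on the left (r = −0.03) and the controls exchanged on the right (r = 0.30). Fibroblast markers (green) lie mostly above zero on both axes, and ATF4 pathway genes (purple) lie lower than most members.

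Most members lay within a narrow band. The median log2 difference was 0.13, and 84.6% of members lay within 0.5 of zero. In 4561 members (29.7%) both rapamycin libraries exceeded both controls, in 1835 members (12%) both lay below, and in 8959 the groups overlapped. At an unadjusted p under 0.05 in the limma fit, 1741 members (11.3%) were higher and 496 (3.23%) were lower. This excess of higher genes depended on the scale. Under median-ratio scaling the median difference was −0.02, with 1003 members higher and 1163 lower at that threshold. Differences of gene lists are therefore given below relative to the median of all members. When each library's own median was removed first, 2341 members (15.2%) lay above both controls and 4074 (26.5%) below. Counts of list members given below are to be read beside these shares and the 29.7% and 12% given first.

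After Benjamini-Hochberg adjustment 2 of the 17638 genes fitted by limma passed an adjusted p of 0.05 (0.0113%), and both were lower with rapamycin. They were Snora33, a box H/ACA small nucleolar RNA, and Uqcrc1, a core subunit of respiratory complex III.

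Snora33 stood at 58.0 and 50.05 TPM in the controls and at 0.416 and 0.371 TPM with rapamycin. The groups were far apart, with a log2 difference of −5.30 (SE 0.16, limma adjusted p = 0.000109). The level was also under 1 TPM in the rotenone libraries (0.287 and 0.282 TPM) and the CX-5461 libraries (0.332 and 0.346 TPM), so the controls stood apart from every treated library. Snora33 lies at chr10:23785347-23785475 on the minus strand (GRCm38) inside the ribosomal protein gene Rps12, on the same strand. Rps12 itself stood at 1142 and 951 TPM in the controls and 855 and 881 TPM with rapamycin, a log2 difference of −0.26. Such small RNAs carry no poly(A) tail as a rule, and the sequence is shown because it is the feature with the lowest p-value in the comparison.

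Snora33: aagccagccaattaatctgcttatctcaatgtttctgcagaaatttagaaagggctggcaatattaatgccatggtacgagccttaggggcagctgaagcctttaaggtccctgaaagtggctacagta

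Uqcrc1 stood at 187 and 115 TPM in the controls and at 9.06 and 9.55 TPM with rapamycin, a log2 difference of −3.84 (SE 0.29, limma adjusted p = 0.0300). The rotenone libraries held 172 and 165 TPM, and the CX-5461 libraries 85.5 and 146 TPM. The level was thus low with rapamycin alone, and rapamycin differed from rotenone by −4.04 and from CX-5461 by −3.45 on the log2 scale (limma adjusted p = 0.0011 and 0.00025). No other subunit of complex III was called. Cyc1, cytochrome c1 of the same complex, stood at 455 and 430 TPM in the controls and 313 and 349 TPM with rapamycin. The nearest annotated neighbour of Uqcrc1 with a level above zero, Col7a1, stood between 1.80 and 4.05 TPM in the 4 libraries. Both calls were lost when the 4 libraries were fitted alone, where limma called 0 genes (adjusted p = 0.0751 for Snora33 and 0.470 for Uqcrc1), with 760 higher and 237 lower members at an unadjusted p under 0.05. Without rapamycin 1 or rapamycin 2 the call of Uqcrc1 was lost too (limma adjusted p = 0.118 and 0.0596), and so it was without rotenone 1 or 2 (0.0843 and 0.0883), while Snora33 stayed called in each of these.

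The drug's receptor and kinase were expressed in all 4 libraries. Fkbp1a stood at 119 and 154 TPM in the controls and 147 and 148 TPM with rapamycin, with overlapping groups. Mtor stood at 18.3 and 22.3 TPM in the controls and 27.9 and 24.2 TPM with rapamycin, so both treated libraries were higher (log2 difference 0.35, SE 0.16, limma adjusted p = 0.40). For Rptor, which encodes the scaffold raptor of mTORC1, the values were 17.8 and 25.0 TPM against 30.6 and 23.6 TPM. Rictor, which defines the other mTOR complex, gave 8.72 and 11.6 TPM against 14.9 and 11.4 TPM. For Mlst8, a subunit of both complexes, they were 19.0 and 23.9 TPM against 29.9 and 24.0 TPM. The groups overlapped for Rptor and Rictor, and barely separated for Mlst8.

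Across the mTORC1 pathway list of 76 members, 27 lay above both controls and 6 below, against 29.7% and 12% of all members, and none was called. Once library medians were removed 12 lay above and 20 below, against 15.2% and 26.5%. The list's median was 0.03 above that of all members, and 0.03 below (−0.03) without the trend on exon length described further on. Subunits of the complexes (12 members) gave 6 above and 0 below, and the nutrient sensing genes (40 members) gave 14 and 5. Eif4ebp1, the translational repressor that mTORC1 phosphorylates, stood at 591 and 503 TPM in the controls and 375 and 425 TPM with rapamycin, below both controls. Its log2 difference was −0.45 (SE 0.11, limma adjusted p = 0.25). Lamtor5, part of the lysosomal Ragulator scaffold, also lay below, at 175 and 143 TPM against 116 and 121 TPM. Mapkap1, a subunit of the rictor complex, lay above at 18.4 and 24.3 TPM against 41.4 and 41.2 TPM. So did Castor2, a paralogue of the arginine sensor, at 1.48 and 1.96 TPM against 3.15 and 2.67 TPM.

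Insulin and PI3K signalling acts upstream of mTORC1 and is under its negative feedback. The list of this name also holds FOXO factors and their targets. Of 41 members, 25 lay above both controls and 3 below, against 29.7% and 12% of all members. The median of the list was 0.20 above all members. Irs2, an adaptor of the insulin receptor, stood at 3.74 and 4.94 TPM in the controls and 9.66 and 7.11 TPM with rapamycin (log2 difference 0.81, SE 0.21, limma adjusted p = 0.25). Pik3cb, a catalytic subunit of PI3K, gave 3.32 and 7.55 TPM against 16.0 and 13.6 TPM. Igf2r, the mannose 6-phosphate receptor, gave 16.5 and 29.3 TPM against 45.2 and 30.6 TPM. Receptors and adaptors (9 members) were above in 7, kinases and phosphatases (18 members) in 13, and FOXO factors and their targets (14 members) in 5 with 3 below. These genes were long, with a median summed exon length of 6323 bases against 3694 for all members. Without the trend on exon length the list's median was 0.09. With library medians removed, 16 lay above both controls and 10 below, against 15.2% and 26.5% of all members. Among the 14 members of the FK506-binding protein family, 4 lay above and 1 below. The largest differences in it were those of Fkbp15 (11.5 and 22.5 TPM against 31.9 and 24.1 TPM) and of Fkbp10, a collagen chaperone of the endoplasmic reticulum (25.4 and 32.1 TPM against 51.8 and 41.2 TPM).

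Genes of the ATF4 pathway lay below both controls more often than above them. ATF4 is the transcription factor of the integrated stress response and is also translated more when mTORC1 is active. Its targets include the enzymes that make serine, glycine, proline and asparagine, the folate enzymes of mitochondria, amino acid transporters and tRNA synthetases. Of 49 members, 22 lay below both controls and 5 above, against 12% and 29.7% of all members, and 17 had an unadjusted p under 0.05 in the lower direction and 1 in the higher. None was called. The list's median was 0.23 below that of all members, at −0.17 in rapamycin 1 and −0.25 in rapamycin 2, while the controls stood at −0.03 and 0.03.

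The amino acid and one-carbon enzymes stood furthest below within the list. Of 14 members, 11 lay below both controls and 0 above, and their median relative to all members was −0.46 in rapamycin 1 and −0.53 in rapamycin 2, with −0.02 and 0.02 in the controls. With control 2 taken alone, 13 of the 14 lay below it, against 25.3% of all members below and 38.1% above. Psat1, which makes phosphoserine, stood at 443 and 403 TPM in the controls and 261 and 270 TPM with rapamycin (log2 difference −0.67, SE 0.13, limma adjusted p = 0.19). The other enzymes of the serine pathway stood lower too, Phgdh at 192 and 195 TPM against 143 and 140 TPM. For Psph they were 104 and 84.8 TPM against 39.8 and 63.1 TPM. In these 3 genes every rapamycin value was below every control value.

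The mitochondrial folate enzymes followed. Mthfd2 stood at 123 and 141 TPM in the controls and 96.6 and 90.5 TPM with rapamycin. Shmt2, serine hydroxymethyltransferase of mitochondria, gave 244 and 285 TPM against 225 and 192 TPM. Mthfd1l overlapped, at 72.8 and 84.8 TPM against 80.4 and 64.9 TPM. Both proline enzymes in the list lay below, with Aldh18a1 at 49.9 and 62.7 TPM against 43.9 and 37.4 TPM. Pycr1 gave 32.7 and 34.8 TPM against 25.1 and 27.5 TPM. Asns, asparagine synthetase, was the most abundant of those named, at 748 and 727 TPM against 638 and 619 TPM (log2 difference −0.23, SE 0.08).

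Among the 24 stress factors of the list 10 lay below and 4 above. Nupr1, a small chromatin protein induced by stress, stood at 126 and 99.6 TPM in the controls and 60.6 and 58.1 TPM with rapamycin, a log2 difference of −0.91 (SE 0.13, limma adjusted p = 0.12). Stc2, a secreted glycoprotein, gave 10.0 and 11.1 TPM against 6.78 and 5.46 TPM. For Trib3, a pseudokinase that feeds back on ATF4, the values were 43.9 and 42.1 TPM against 29.5 and 28.1 TPM, and for Chac1, which degrades glutathione, 23.5 and 21.1 TPM against 16.4 and 12.7 TPM. In each of these 4 genes the groups were separate. The mRNA of Atf4 itself differed little, at 304 and 341 TPM against 303 and 300 TPM. Ddit3, which encodes CHOP, overlapped at 50.1 and 45.6 TPM against 49.1 and 58.2 TPM. The eIF2α kinase genes Eif2ak3 (12.9 and 16.7 TPM against 22.8 and 17.7 TPM) and Eif2ak4 (12.2 and 15.8 TPM against 19.4 and 16.3 TPM) lay above both controls. Of the 11 amino acid transporters only Slc3a2 lay below both controls (348 and 369 TPM against 334 and 323 TPM) and only Slc7a11, the cystine transporter, above (2.80 and 2.65 TPM against 3.64 and 3.12 TPM).

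**Figure D2:**
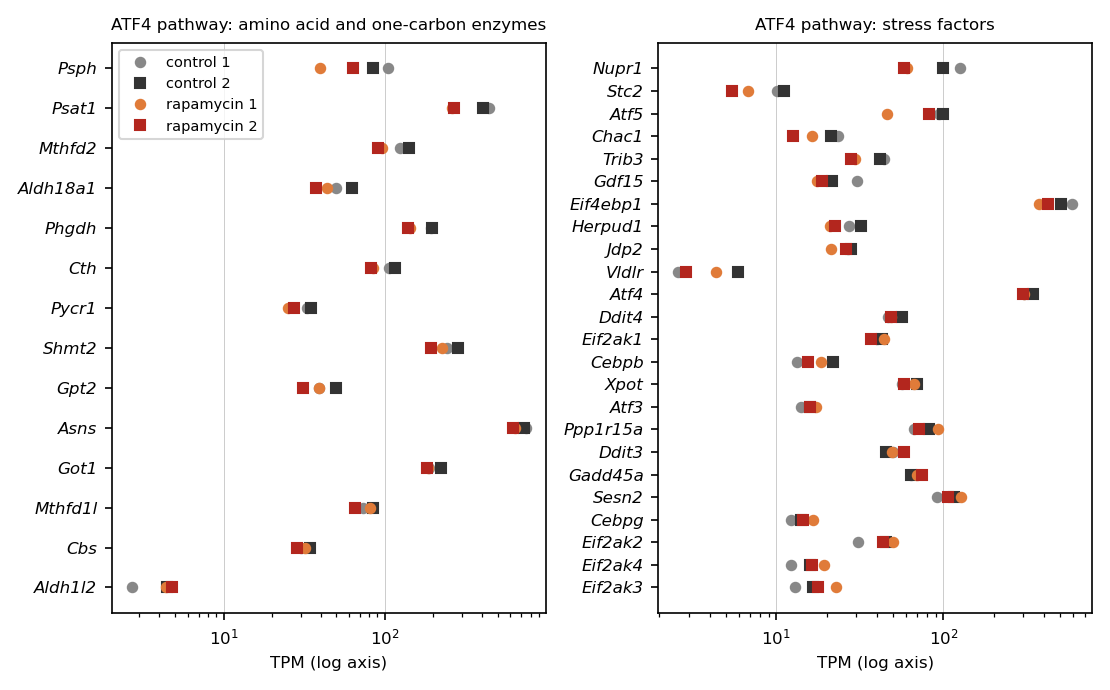
TPM on a log axis in each of the 4 libraries (grey and black, controls; orange and red, rapamycin) for the ATF4 pathway's 14 amino acid and one-carbon enzymes and 24 stress factors, sorted by log2 difference. In the upper rows both rapamycin libraries lie to the left of both controls, as for Psat1 (443 and 403 TPM against 261 and 270 TPM), while Atf4 itself shows little distance.

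The cytosolic tRNA synthetase list gave 10 of 20 members below both controls and 1 above, with a median of −0.19 relative to all members and of −0.04 under quantile normalization. Nars, for asparagine, stood at 306 and 320 TPM in the controls and 231 and 245 TPM with rapamycin (log2 difference −0.39, SE 0.08, limma adjusted p = 0.19). Sars, for serine, gave 189 and 214 TPM against 159 and 151 TPM. For Gars, for glycine, the values were 392 and 442 TPM against 352 and 315 TPM, and for Cars, for cysteine, 164 and 188 TPM against 152 and 130 TPM. These 4 were separate between the groups, while others such as Kars (387 and 425 TPM against 411 and 391 TPM) overlapped.

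The rapamycin libraries were also set against the other treated libraries, a contrast that uses no control mean. The control libraries still enter its estimate of the spread. In the same limma fit, 33 of the 49 members were lower with rapamycin than with rotenone at an adjusted p under 0.05 and 0 were higher, against 14.5% and 7.09% of all members. The enzymes gave 9 of 14 lower and the stress factors 17 of 24. Nupr1 stood at 166 and 163 TPM and Stc2 at 17.0 and 19.3 TPM with rotenone, above all 4 control and rapamycin libraries. Against CX-5461, 18 of the 49 were lower and 11 higher with rapamycin, where 27% and 10% of all members were. For the fibroblast markers described below, 38 of 53 were lower with rapamycin than with rotenone and 50 of 53 lower than with CX-5461.

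The promoter windows of a few of these genes are shown because they hold a sequence element of the kind that ATF4 binds. In the RefSeq table (GRCm38.p6; 250 bases before to 50 after the transcript start) 41 of the 49 ATF4 pathway members were matched by symbol. The C/EBP-ATF element, TGATGNAAN on either strand, was found in 10 of them (24.4%), against 2.14% of the 10399 members matched in all and 4.04% of all 27025 promoters. The sterol element TCACNCCAC was found in 1 of 29 promoters of the sterol list (3.45%, against 1.12% of matched members). The CLEAR element TCACGTGA, a palindrome bound by TFEB and its relatives, was found in 8 of 74 promoters of the lysosome list (10.8%), against 1.90% of matched members and 1.01% of all promoters. A match describes letters in this window and is no evidence of binding. The lists were drawn up from genes of these pathways, so a higher share describes the lists and no change with rapamycin. Capitals mark the element in 4 ATF4 pathway promoters and in the promoters of Ctsd and Mcoln1 of the lysosome list. Each stretch is written 5′ to 3′ on the strand of its gene and stops before the transcript start.

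Asns, chr6:7693210-7693272, minus strand: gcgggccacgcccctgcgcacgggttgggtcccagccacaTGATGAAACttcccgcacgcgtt
Nupr1, chr7:126625533-126625621, minus strand: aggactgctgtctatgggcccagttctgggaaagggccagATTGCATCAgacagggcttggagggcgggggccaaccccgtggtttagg
Pycr1, chr11:120643803-120643891, minus strand: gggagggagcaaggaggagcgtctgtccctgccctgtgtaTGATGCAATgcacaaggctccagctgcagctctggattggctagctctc
Chac1, chr2:119351008-119351096, plus strand: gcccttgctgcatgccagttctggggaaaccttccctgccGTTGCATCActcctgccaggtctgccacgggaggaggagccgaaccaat
Ctsd, chr7:142387879-142387966, minus strand: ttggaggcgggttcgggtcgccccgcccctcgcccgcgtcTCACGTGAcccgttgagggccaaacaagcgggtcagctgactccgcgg
Mcoln1, chr8:3500433-3500518, plus strand: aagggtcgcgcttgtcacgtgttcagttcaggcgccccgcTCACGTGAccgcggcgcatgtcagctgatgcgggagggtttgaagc

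In Asns and Pycr1 the element reads along the gene's own strand, and in Nupr1 and Chac1 along the other. The first base of the element lay 23 bases before the transcript start in Asns, 103 in Pycr1, 111 in Nupr1 and 194 in Chac1. Each of these 4 genes, chosen after their values were seen, lay below both controls with rapamycin. The element was also in the promoter of Slc7a11, which lay above, and in those of Atf3 (14.03 and 16.0 TPM against 17.3 and 15.9 TPM) and Slc1a4 (6.64 and 24.6 TPM against 22.9 and 17.7 TPM), which overlapped.

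Lysosomal genes lay on the other side. Of the 91 members of the lysosome and autophagy list, 44 lay above both controls and 3 below, against 29.7% and 12% of all members. In the limma fit 28 had an unadjusted p under 0.05, all higher, where 11.3% of all members were higher. None was called. The list's median was 0.08 above that of all members. The lysosomal enzymes gave 24 of 34 above and 0 below, with a median of 0.17 in rapamycin 1 and 0.20 in rapamycin 2 relative to all members, where the controls stood at 0.03 and −0.03. Against control 2 alone 27 of the 34 lay above and 2 below, where 38.1% and 25.3% of all members did. With library medians removed 16 of these 34 lay above and 2 below, against 15.2% and 26.5% of all members. The membrane proteins and proton pump subunits gave 11 of 25 above and 1 below. Autophagy genes gave 9 of 32 above (28.1%) and 2 below, near the 29.7% of all members that lay above.

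Ctsd, the aspartic protease cathepsin D, stood at 355 and 385 TPM in the controls and 516 and 484 TPM with rapamycin (log2 difference 0.43, limma adjusted p = 0.19). For Gaa, acid alpha-glucosidase, the values were 28.8 and 48.0 TPM against 70.5 and 58.7 TPM. Naglu, which degrades heparan sulphate, stood at 5.36 and 4.96 TPM against 8.29 and 8.54 TPM. All 3 enzymes were separate between the groups. Among membrane proteins, Lamp2 stood at 79.2 and 73.8 TPM against 106 and 106 TPM, Gpnmb at 10.0 and 13.4 TPM against 19.0 and 17.1 TPM, and the calcium channel gene Mcoln1 at 35.1 and 47.8 TPM against 63.0 and 51.2 TPM. Tfeb overlapped, at 32.0 and 51.4 TPM against 51.4 and 40.1 TPM. Ulk1, the autophagy kinase that mTORC1 inhibits, gave 114 and 185 TPM against 294 and 182 TPM and overlapped. The autophagy receptor gene Sqstm1 stood at 339 and 359 TPM against 372 and 373 TPM.

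Fibroblast markers were higher in the same libraries as the lysosomal genes. Of the 54 fibroblast markers, 53 were members. Above both controls lay 43 of these and below both 0, against 29.7% and 12% of all members. An unadjusted p under 0.05 in the limma fit was found for 37 in the higher direction, against 11.3% of all members. None was called. Their summed level was 4080 and 4327 TPM in the controls and 6274 and 5925 TPM with rapamycin, and no defining marker was at 0. The list's median stood 0.55 above all members in rapamycin 1 and 0.53 in rapamycin 2, with the controls level. With library medians removed, 34 lay above both controls and 0 below, against 15.2% and 26.5% of all members. Against control 2 alone 48 lay above and 0 below, where 38.1% and 25.3% of all members did. All 10 collagens lay above both controls.

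Among the matrix genes the distances were wide. Bgn, biglycan, stood at 80.3 and 80.5 TPM in the controls and 181 and 153 TPM with rapamycin. For Postn, periostin, the values were 46.9 and 49.9 TPM against 109 and 99.5 TPM. Timp3, an inhibitor of metalloproteinases, gave 16.7 and 22.1 TPM against 51.3 and 43.3 TPM, a log2 difference of 1.25 (SE 0.16, limma adjusted p = 0.10). Fbn1, fibrillin, gave 13.7 and 11.3 TPM against 34.4 and 27.6 TPM. For Thbs1, thrombospondin, they were 24.1 and 30.8 TPM against 75.8 and 56.8 TPM. Cav1, caveolin, stood at 2.13 and 4.08 TPM against 10.2 and 25.0 TPM. The groups were separate for these 6 genes. Other fibroblast genes overlapped, among them Vim (477 and 430 TPM against 428 and 459 TPM), Lgals1 (536 and 434 TPM against 443 and 543 TPM) and Lum (11.7 and 9.90 TPM against 11.2 and 11.4 TPM). The part of fibroblast RNA in the other lists was not tested.

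**Figure D3:**
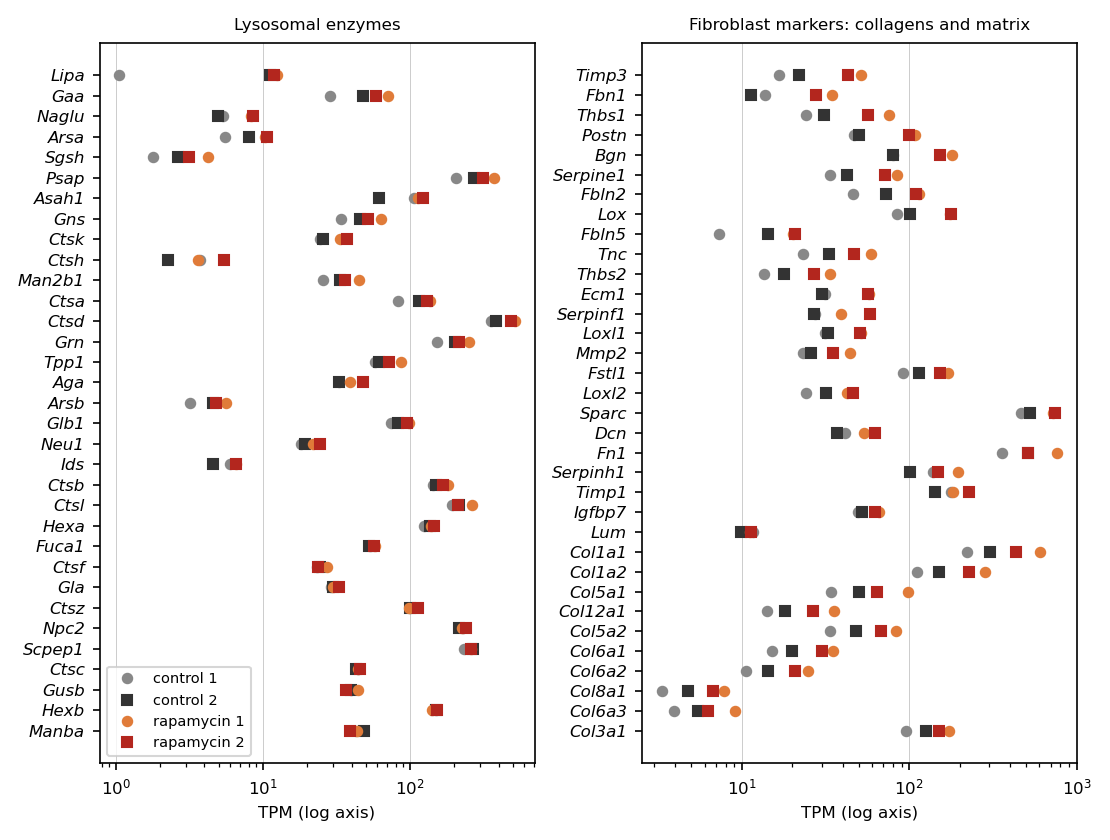
TPM on a log axis in each of the 4 libraries (grey and black, controls; orange and red, rapamycin) for 33 of the lysosomal enzymes and for 34 collagens, matrix proteins and matrix enzymes of the fibroblast list. Both rapamycin libraries lie to the right of both controls for 23 of the lysosomal enzymes drawn and for 32 of the fibroblast genes.

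For sterol and fatty acid genes, targets of SREBP, the counts depended on the scale. Of 40 members, 15 lay above both controls and 0 below, against 29.7% and 12% of all members. The median was 0.06 above all members. With library medians removed, 5 lay above and 6 below, against 15.2% and 26.5% of all members. Insig1, the sterol-sensing retention protein, gave 116 and 176 TPM in the controls and 233 and 199 TPM with rapamycin. For Idi1, an isomerase of the mevalonate pathway, the values were 21.3 and 35.2 TPM against 46.2 and 38.9 TPM. Cyp51, lanosterol demethylase, gave 79.0 and 85.0 TPM against 103 and 97.6 TPM. These 3 genes were separate between the groups. Of 32 nucleotide synthesis genes, 4 lay above and 7 below, and the largest difference was that of Impdh1 (33.3 and 36.1 TPM against 50.03 and 42.9 TPM), an enzyme of guanine nucleotide synthesis.

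The lists of the translation and energy machinery had medians below that of all members, and for most of them the controls were themselves apart. Their genes were short, and the log2 difference followed exon length over all members. With members split by exon length into 5 groups of equal size, the median was −0.04 in the shortest, then 0.04, 0.13 and 0.20, and 0.28 in the longest. Cytosolic ribosomal proteins (83 members) had a median of −0.25 relative to all members, with the controls at 0.18 and −0.18 and rapamycin at −0.38 and −0.12, and 13 members lay below both controls and 4 above. Nuclear oxidative phosphorylation genes (77 members) had a median of −0.34, with the controls at 0.22 and −0.22. In both lists control 2 lay below rapamycin 2. Mitochondrial ribosomal proteins (77 members) gave 35 below and 1 above, with a median of −0.31. Their controls stood at 0.18 and −0.18, and rapamycin at −0.46 and −0.19. The proteasome (36 members) gave 18 below and 0 above, with a median of −0.30. Its controls stood at 0.13 and −0.13, and rapamycin at −0.42 and −0.18. Of all members 12% lay below and 29.7% above. Without the trend on exon length the list medians were −0.14, −0.23, −0.27 and −0.22 in the same order. Without control 1 the medians of the first pair of lists were −0.06 and −0.11, and without control 2 they were −0.44 and −0.56. Under quantile normalization the ribosomal protein median was −0.03. The part of transcript length in these lists was not tested further.

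Ribosome biogenesis differed from these lists in that the controls agreed. Of 102 members, 26 lay below both controls and 5 above, against 12% and 29.7% of all members. The median was −0.13 relative to all members, and the controls stood at −0.02 and 0.02. Under quantile normalization the median was −0.04. Pno1, an assembly factor of the small subunit, stood at 238 and 198 TPM in the controls and 144 and 180 TPM with rapamycin. Nip7, a factor of the large subunit, gave 123 and 120 TPM against 89.5 and 95.1 TPM. For Rrp15, a further nucleolar factor, the values were 155 and 149 TPM against 115 and 129 TPM. Rrp8, a nucleolar methyltransferase, lay above at 18.3 and 20.3 TPM against 23.5 and 32.5 TPM. Of the RNA polymerase I genes, 4 of 24 lay above and 4 below. The 13 subunits gave 0 above and 4 below, and the 11 initiation or termination factors 4 above and 0 below. Their median exon lengths were 2595 and 6023 bases.

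Single members of the machinery lists differed in size and direction. Rpl26 stood at 2623 and 2181 TPM in the controls and 1941 and 1811 TPM with rapamycin (log2 difference −0.35, SE 0.10, limma adjusted p = 0.29). Mrpl14 gave 142 and 131 TPM against 89.3 and 101 TPM, and the proteasome subunit gene Psma2 gave 211 and 177 TPM against 135 and 157 TPM. Translation factor genes gave 10 of 47 above and 8 below, and 3 above and 20 below with library medians removed. Eef2, the elongation factor that moves the ribosome along, stood at 1650.2 and 2182 TPM in the controls and 2874 and 2493 TPM with rapamycin, above both. Eif4g3, a scaffold of the cap-binding complex, gave 12.03 and 16.6 TPM against 36.4 and 26.5 TPM, and Eif4b 324 and 428 TPM against 524 and 445 TPM. The 13 protein genes of the mitochondrial chromosome were spread more between the controls (0.50 and −0.50) than between the groups.

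**Figure D4:**
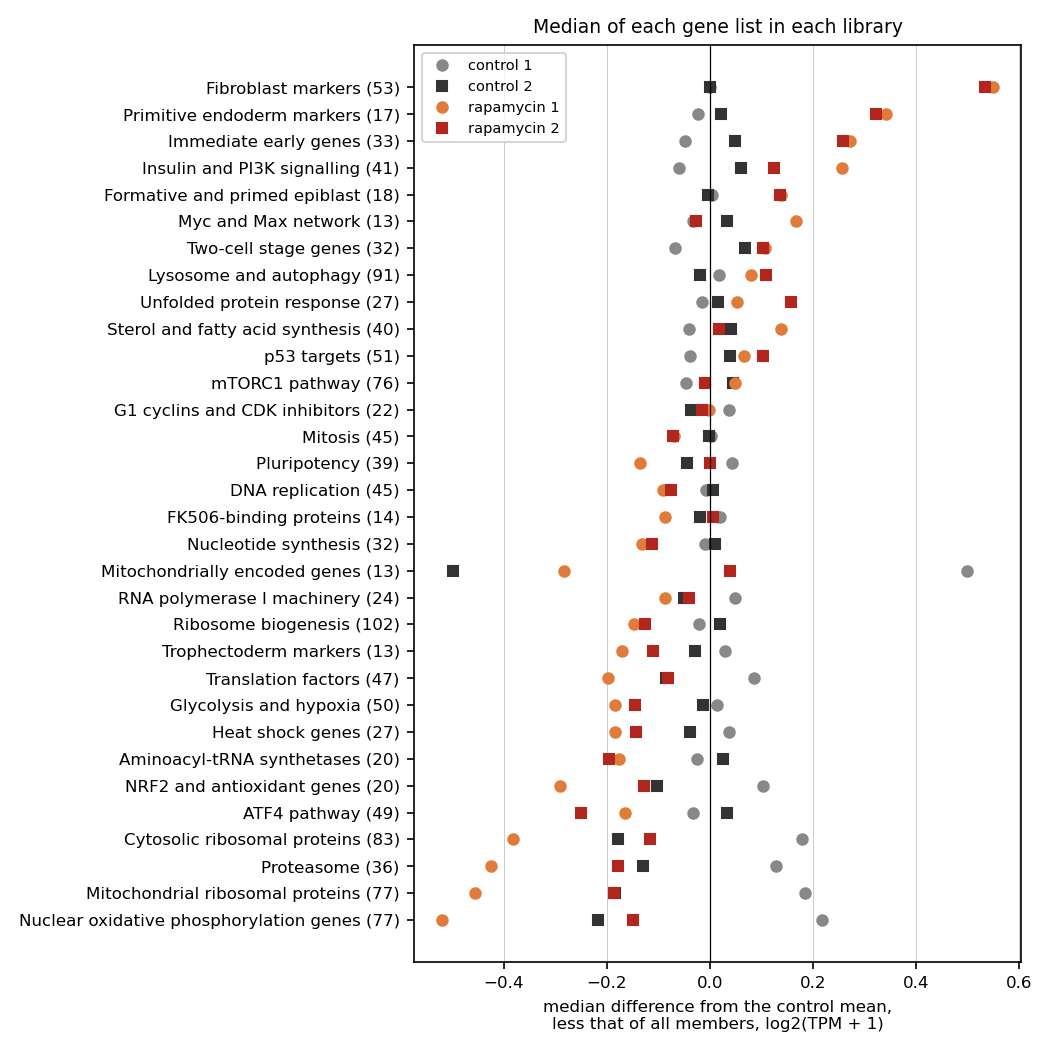
Each row is one gene list, with its number of members. Points give the median difference of each library from the control mean, less the same median over all members, on the log2(TPM + 1) scale (grey and black, controls; orange and red, rapamycin). In the fibroblast list (0.55 and 0.53) and the ATF4 pathway (−0.17 and −0.25) both rapamycin libraries stand away from both controls, while in the oxidative phosphorylation list control 2 lies below rapamycin 2.

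The glycolysis and hypoxia list includes genes that mTORC1 raises through HIF1A. Of 50 members, 16 lay below both controls and 8 above, against 12% and 29.7% of all members. Glycolytic enzymes and transporters (25 members) gave 9 below and 3 above, and pentose phosphate genes (7 members) 4 and 1. The hypoxia response genes (18 members) gave 3 below and 4 above. The list's median was −0.16 relative to all members, with controls at 0.01 and −0.01. Under quantile normalization the median was −0.04. Slc16a3, the lactate exporter, stood at 41.3 and 29.999 TPM in the controls and 21.3 and 15.2 TPM with rapamycin (log2 difference −0.93, SE 0.21, limma adjusted p = 0.21). Pgls, of the pentose phosphate pathway, gave 182 and 138 TPM against 85.2 and 85.9 TPM. For Bnip3, a mitophagy receptor induced by hypoxia, the values were 60.4 and 52.9 TPM against 37.1 and 39.4 TPM. These 3 were separate between the groups. P4ha2, a collagen prolyl hydroxylase, lay above at 21.4 and 24.9 TPM against 43.7 and 34.6 TPM.

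The stress lists went both ways. Heat shock genes gave 12 of 27 below and 3 above, and antioxidant genes of the NRF2 pathway 6 of 20 below and 2 above. Once library medians were removed these were 20 below and 1 above, and 11 below and 0 above. Hspb1, a small chaperone, stood at 1799 and 1526 TPM in the controls and 1314 and 1453 TPM with rapamycin, and Hmox1, haem oxygenase, at 138 and 138 TPM against 117 and 122 TPM. Genes of the unfolded protein response gave 15 of 27 above and 1 below. P4hb, protein disulphide isomerase, stood at 436 and 505 TPM against 693 and 632 TPM, and Sel1l, of the degradation machinery of the endoplasmic reticulum, at 13.0 and 15.8 TPM against 30.6 and 23.6 TPM. Of 51 p53 targets, 27 lay above and 5 below, against 29.7% and 12% of all members, with a median of 0.05 relative to all members. Once library medians were removed the unfolded protein response gave 8 above and 7 below, and the p53 targets 14 above and 16 below. Pmaip1, the pro-apoptotic factor NOXA, stood at 11.5 and 11.4 TPM against 17.9 and 19.9 TPM, and the cell cycle inhibitor Cdkn1a at 277 and 313 TPM against 360 and 359 TPM.

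Immediate early genes gave 23 of 33 above and 2 below, against 29.7% and 12% of all members. Their median was 0.26 relative to all members, and 18 had an unadjusted limma p under 0.05 in the higher direction. Nr4a3, an orphan nuclear receptor, stood at 1.44 and 1.80 TPM in the controls and 7.95 and 4.32 TPM with rapamycin (log2 difference 1.40, SE 0.27, limma adjusted p = 0.19). Nr4a2 gave 6.80 and 7.75 TPM against 19.2 and 12.8 TPM. For the AP-1 factor Fosl2 they were 4.95 and 7.89 TPM against 14.9 and 11.3 TPM. Fosb gave 15.5 and 25.3 TPM against 41.1 and 31.2 TPM. With library medians removed, 20 of the 33 lay above both controls and 3 below, against 15.2% and 26.5% of all members. Fibroblast markers were higher in the same libraries, as given above.

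The counts of the cell cycle lists depended on the scale. DNA replication genes gave 7 of 45 above and 4 below, and mitosis genes 9 of 45 above and 8 below, with medians of −0.09 and −0.07 relative to all members that turned to 0.02 and 0.05 under quantile normalization. The counts with library medians removed were 1 above and 21 below for replication and 4 above and 22 below for mitosis, against 15.2% and 26.5% of all members. Pcna stood at 606 and 654 TPM in the controls and 543 and 588 TPM with rapamycin, and Mcm7 at 439 and 488 TPM against 503 and 444 TPM. Among the 22 genes of G1 cyclins and their inhibitors 6 lay above and 4 below, with Rbl2, a pocket protein, at 4.44 and 5.03 TPM against 10.1 and 7.44 TPM. Of 13 genes of the Myc and Max network 5 lay above and 1 below. Mycn stood at 93.5 and 39.7 TPM in the controls and 105 and 108 TPM with rapamycin, so that the controls differed more from each other than control 1 did from the treated libraries.

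Pluripotency genes gave 12 of 39 above both controls and 8 below, and 4 above and 14 below with library medians removed. Gbx2, a naive state factor, stood at 60.9 and 61.8 TPM in the controls and 40.6 and 45.1 TPM with rapamycin (log2 difference −0.51, limma adjusted p = 0.23), and Dppa3 at 76.6 and 54.5 TPM against 41.5 and 47.8 TPM. Tdgf1, the NODAL co-receptor, lay above at 307 and 366 TPM against 440 and 433 TPM. Genes of the formative and primed epiblast gave 10 of 18 above and 2 below, against 29.7% and 12% of all members. Their median was 0.17 relative to all members, with the controls level. Otx2, a factor of the formative state, stood at 4.57 and 5.27 TPM against 9.48 and 9.16 TPM (log2 difference 0.80, SE 0.16, limma adjusted p = 0.19). Lefty1, an inhibitor of NODAL, gave 25.2 and 24.7 TPM against 42.2 and 44.0 TPM. For Sox4 the values were 6.50 and 7.12 TPM against 11.9 and 11.4 TPM. In each of these 3 the replicates lay close together and the groups were separate. With rotenone, Otx2 stood at 1.25 and 1.10 TPM and Lefty1 at 10.9 and 13.1 TPM, below the controls.

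Defining lineage factors of the early embryo were low in level, unlike some matrix genes of the same lists. Of 17 primitive endoderm members, 10 lay above both controls and 0 below, against 29.7% and 12% of all members. Genes of the basement membrane and matrix were among those above. Lama1 stood at 16.2 and 23.9 TPM in the controls and 51.6 and 34.7 TPM with rapamycin, Col4a2 at 12.7 and 14.7 TPM against 31.9 and 22.3 TPM, and Sparc, which is in both lists, at 464 and 523 TPM against 718 and 746 TPM. The defining factors Gata4 (1.39 and 1.62 TPM against 1.38 and 2.37 TPM) and Sox17 (0.342 and 1.11 TPM against 1.14 and 1.33 TPM) stayed under 3 TPM, and Gata6 (0.753 and 0.540 TPM against 1.52 and 1.19 TPM) as well. Of 13 trophectoderm members 3 lay above and 5 below. Cdx2, a trophectoderm factor, stood at 5.65 and 6.81 TPM in the controls and 2.30 and 3.38 TPM with rapamycin (log2 difference −0.92, SE 0.22, limma adjusted p = 0.23). The other defining factors did not follow it. Gata3 (1.02 and 0.562 TPM against 1.05 and 0.991 TPM) and Eomes (3.25 and 3.23 TPM against 4.15 and 3.19 TPM) overlapped, with log2 differences of 0.19 and 0.13.

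The study follows genes of the 2-cell embryo, which a small share of ES cells expresses at any time. Of 32 members 13 lay above and 3 below, against 29.7% and 12% of all members, with a median of 0.11 relative to all members, and none was called. The counts with library medians removed were 8 above and 8 below. Zscan4d stood at 13.3 and 18.1 TPM in the controls and 19.1 and 18.1 TPM with rapamycin (log2 difference 0.24, SE 0.16, limma adjusted p = 0.49). Zscan4f gave 7.48 and 10.6 TPM against 18.4 and 13.0 TPM. For Gm12794 the values were 1.16 and 1.48 TPM against 4.67 and 1.97 TPM. Gm4340 overlapped, at 5.23 and 7.01 TPM against 4.95 and 5.24 TPM, and Duxf3 was listed at 0 in all 4 libraries. Most of these genes (27 of 32) belong to families of near-identical copies, between which reads could have been divided, so the value of a single copy is uncertain. Against CX-5461, 29 of the 32 were lower with rapamycin, where 27% of all members were.

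Many of the largest differences among members with separate groups were at features that overlap other annotation. Of the 24 genes at either extreme, 18 (75%) overlapped another annotated gene and 12 (50%) overlapped one on the same strand, against 54.7% and 24.0% of all members with annotation. The counting was not stated to use strand, so reads in an overlap cannot be assigned with certainty. Mia3, an exporter of collagen cargo that overlaps no other annotated gene, had the highest difference, at 0.431 and 2.19 TPM in the controls and 73.7 and 67.2 TPM with rapamycin (log2 difference 5.06, SE 0.88, limma adjusted p = 0.19). Its rotenone libraries held 24.8 and 64.7 TPM and its CX-5461 libraries 15.7 and 110 TPM, so libraries of one group differed several-fold. Gm27505, inside the nuclear RNA gene Neat1, stood at 0.235 and 0.501 TPM against 32.3 and 11.998 TPM, while Neat1 stood at 2.40 and 3.92 TPM against 7.54 and 5.74 TPM. The mitochondrial serine tRNA mt-Ts2 stood at 28.2 and 18.7 TPM against 136 and 100 TPM (log2 difference 2.29, limma adjusted p = 0.06), and its neighbour mt-Th at 38.3 and 29.0 TPM against 193 and 113 TPM. Mt-Nd4, next to them, stood at 2158 and 13.4 TPM in the controls and 1482 and 1606 TPM with rapamycin.

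Levels at overlapping genes also differed between the libraries of one group. Tmem150a stood at 0.600 and 0.382 TPM in the controls and 9.07 and 10.8 TPM with rapamycin, while Rnf181, which overlaps it, stood at 45.7 TPM in control 1, 2.67 TPM in control 2, and 3.95 and 4.12 TPM with rapamycin. Hnrnpu, a nuclear RNA-binding protein, stood at 25.6 and 74.6 TPM against 11.9 and 10.95 TPM, and the overlapping Cox20 at 2.58 and 51.4 TPM against 1.30 and 1.72 TPM. Exosc6, an exosome subunit, stood at 115 and 4.31 TPM against 0.0923 and 0.0497 TPM, and the overlapping Aars at 179 and 250 TPM against 240 and 197 TPM. Values listed at 0 occurred at expressed genes as well, with Adnp at 0 in control 1 and at 76.7 TPM in control 2 and at 97.2 and 79.2 TPM with rapamycin.

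**Figure D5:**
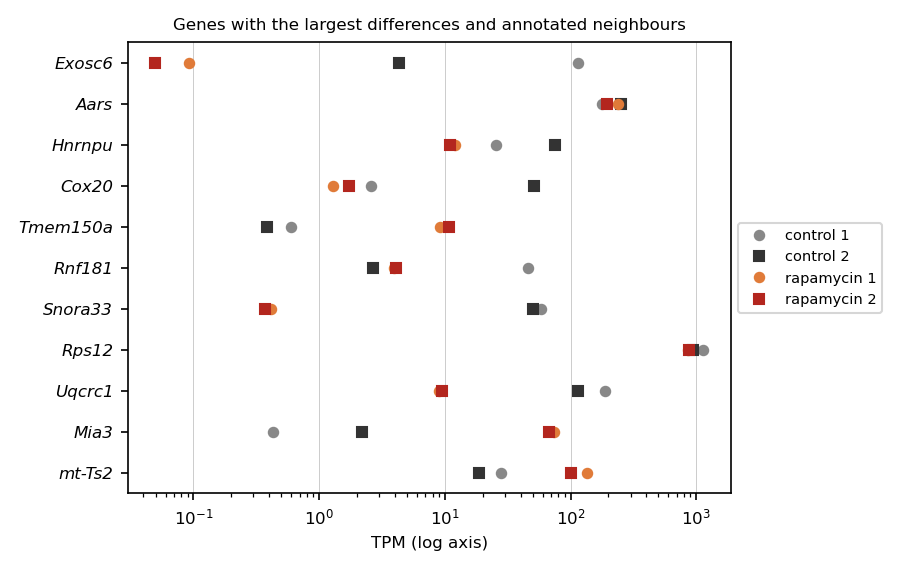
TPM on a log axis in the 4 libraries (grey and black, controls; orange and red, rapamycin) for genes with the largest differences and for genes that overlap them. Snora33 and Uqcrc1 show both rapamycin libraries far to the left of both controls, and the control libraries themselves lie far apart for Exosc6 (115 and 4.31 TPM), Rnf181 (45.7 and 2.67 TPM) and Cox20 (2.58 and 51.4 TPM).

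Other genes at the extremes are given by their values, and Zfp62 and Pygo2 among them overlap no other annotated gene. Above both controls were the collagen-locus transcript Gm47302 (3.82 and 52.6 TPM against 183 and 58.5 TPM), the PI3K regulatory subunit gene Pik3r2 (0.560 and 0.669 TPM against 12.8 and 3.94 TPM) and Snord14c, a small nucleolar RNA in Hspa8 (0.425 and 0.0134 TPM against 2.93 and 8.19 TPM). Below both were Zfp62 (11.3 and 11.3 TPM against 4.36 and 1.20 TPM), Myh14 (10.9 and 9.96 TPM against 4.08 and 3.06 TPM) and Pygo2, a co-activator of Wnt signalling (39.8 and 63.5 TPM against 26.1 and 13.0 TPM). By class, processed pseudogenes had a median log2 difference of −0.05 and small nucleolar RNAs of 0.39, against 0.14 for protein-coding genes. Of the 145 small nucleolar RNAs, 32 (22.1%) lay above both controls and 13 (8.97%) below, against 29.7% and 12% of all members. In this class the median of control 2 minus control 1 was 0.47, and that of rapamycin 2 minus control 2 was −0.13. By chromosome the medians lay between 0.08 and 0.20.

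The count of called genes rested on the control libraries. Without control 2, so that control 1 alone stood for the group, limma called 366 genes, 339 of them higher with rapamycin, and without control 1 it called 21, of which 17 were higher. Both fits assume that the lone control varies as the other groups do. Of the genes described here, Gm47302, Gm27505, mt-Ts2, Timp3, Fbn1, Thbs1, Sparc, Nupr1, Gaa, Gpnmb, Insig1, Idi1, Eef2, Eif4g3, Mapkap1, Lamtor5, P4hb, Tdgf1, Pik3cb and Fosb were called without control 2 and not in the fit of all libraries. Nupr1 and Lamtor5 were the lower ones among them (log2 differences −1.08 and −0.55), and the other log2 differences lay between 0.51 (Tdgf1) and 4.44 (Gm47302). In the fit without control 1 the log2 difference was 2.58 for mt-Ts2, 1.40 for Mycn and −2.60 for Hnrnpu.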

How the data were processed

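The libraries were poly(A)-selected RNA from E14 ES cells, 2 for each of 4 groups named in the labels (control, rapamycin, rotenone, CX-5461). The authors deposited gene-level TPM values, and the submitters' processing notes name CASAVA 1.8, Trimmomatic, HISAT2, Picard and the build mm10, with no role or order. TPM keeps no read depth, so the precision behind each value is unknown, and a table of TPM does not allow the test on counts that the study's methods describe. The embryo table was not used here. Dose and time of treatment are not given in the labels.

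Values were used as deposited, without rescaling. limma 3.58.1 in R 4.3.3 was run on log2(TPM + 1) over the 8 ES libraries in 4 groups, with a trend on mean level, for the 17638 genes with at least 1 TPM in 2 of 8 libraries, and p-values were adjusted by the Benjamini-Hochberg method over these genes. All fold changes are on the log2(TPM + 1) scale, which understates changes of low genes. A gene of a list counts as above or below the controls where both rapamycin libraries exceed both controls or lie below both. Positions, classes and overlaps come from GENCODE M21 (GRCm38), to which 53620 of 53715 IDs matched, and promoters from RefSeq.

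The members and the gene lists were chosen with earlier results of these data known, and some lists come from an earlier session on these data. Named genes were the called genes, 5 markers of the study (Duxf3, Zscan4d, Gm12794, Gm4340, Pou5f1), 5 genes of the drug target (Fkbp1a, Mtor, Rptor, Rictor, Mlst8), the 12 highest and 12 lowest differences among members with separate groups and an unadjusted p under 0.05 whose group mean reached 5 TPM on the higher side, and up to 4 genes of each list. Further genes of the lists, overlapping neighbours and the genes of the promoter windows were chosen after their values were seen. A few genes of the lists are counted but not reported by name here. The alternatives were another pseudocount, other filters, median-ratio scaling, quantile normalization, variance moderation without trend, the 4 libraries alone, the replicate number as a block, removal of the trend on exon length, and leaving out each library.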

Additional observations from a re-analysis of the deposited data

How the results depend on the processing

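The count of called genes was 2, and its alternatives gave 4 with a pseudocount of 0.1, 1 with no low-value filter, 11 with a filter at 1 TPM in 2 of the 4 libraries compared, 1 with median-ratio scaling, 1 with quantile normalization, 0 with the 4 libraries alone and 5 with the trend on exon length removed. It was 2 with a filter at 5 TPM and 2 without the trend in the variance moderation, where Uqcrc1 was no longer among them. Leaving out 1 library in turn gave counts from 1 to 366, the highest without control 2. The limma adjusted p of Snora33 passed 0.05 in all of these except the 4 libraries alone, and that of Uqcrc1 ranged from 0.00617 to 0.470. The groups share replicate numbers in the labels, but the deviations of like-numbered control and rapamycin libraries correlated at −0.326, so the numbers were not taken as a pairing. With the replicate number as a block 1 gene was called, and crossing the pairing, which was tried once the data had been seen, gave 1. The counts of list members against control 2 alone and with library medians removed were also chosen after seeing the data. The cause of these shifts was not tested.

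Of the log2 differences of named genes under all alternatives, 2570 kept their side of the threshold, 35 passed it only under the alternative, 12 no longer passed it. Sign changes occurred in 11 of them, with none larger than 0.16 in size in the reported fit. Of the list medians 523 moved by less than the replicate spread and 85 by more. Among the scalings, quantile normalization shifted the ribosomal protein list most, from −0.25 to −0.03, and turned the medians of the translation factor, pluripotency and FK506-binding protein lists to 0.04, 0.07 and 0.04. With 2 libraries a group, no depth and a control pair less alike than control 2 and rapamycin 2, differences of the size shown here could not be resolved for most single genes.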
